A study of Mus musculus with 13 samples.

Results

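Cd34 (ENSMUSG00000016494) was followed across mammary fibroblasts of 5 developmental stages, of hormone-treated glands, and of hyperplastic glands and tumors. It is 1 of the 32285 genes counted in 13 droplet 3′ single-cell RNA-seq libraries. Its level was read in 100523 fibroblast barcodes out of 120355 barcodes in all (83.5%), 4236 to 11951 per library, and in 604 endothelial barcodes of wildtype glands and 4 of the tumor model. A fibroblast barcode had 500 to 7500 genes, at most 10% mitochondrial unique molecular identifiers (UMIs, each standing for 1 captured transcript), at least 50 UMIs of Dcn, Lum and Col1a2 per 10000, and no UMI of Epcam, Pecam1, Rgs5, Sox10, Ptprc or Myog. An endothelial barcode passed the same limits on genes and mitochondrial UMIs, stayed under that fibroblast limit, and had a UMI of at least 2 of Pecam1, Cdh5 and Emcn.

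The wildtype libraries came from C57BL/6 females: puberty at 4 weeks by the labels (the study's methods give a slightly older age), adult virgins at 9 weeks, day 14.5 of pregnancy, day 10 of lactation and day 4 of involution, with 1 library each, and glands labelled 9 weeks that had received placebo or medroxyprogesterone acetate with estradiol (MPA+E, called "drug" in the titles), with 2 libraries each. These were stromal cells sorted as lineage-negative (without CD31, CD45 and TER-119) and CD24-negative, pooled from a pair of females per stage or replicate, so single animals cannot be told apart. The remaining 4 libraries were GFP+ cells from raGFP-Wnt1 mice (Pdgfra-GFP KI/+ MMTV-Wnt1 T/+, mixed C57BL/6 and FVB background), a hyperplastic gland and a tumor each from mouse 1 (45 weeks) and mouse 2 (17 weeks). In this model the mammary tumor virus promoter drives Wnt1, chiefly in the epithelium, and the GFP gate admits cells that express Pdgfra. Genotype, strain background, age and sort therefore change together with disease state wherever raGFP-Wnt1 libraries are set against wildtype ones, and these factors cannot be told apart there.

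CD34 is a heavily glycosylated transmembrane sialomucin, and with podocalyxin (Podxl) and endoglycan (Podxl2) it forms the CD34 family. It is best known as a surface marker of hematopoietic progenitors and of vascular endothelium, and it is also carried by stromal fibroblasts, in which it is widely used to mark progenitor-type cells. Its cytoplasmic tail binds the adaptor CRKL, while family members bind the scaffold proteins encoded by Slc9a3r1 and Slc9a3r2, which join membrane proteins to ezrin and moesin.

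In GRCm38 the gene lies on the plus strand of chromosome 1, from 194938819 to 194961279. Its 2 protein-coding transcripts, Cd34-201 and Cd34-202, have 8 exons each and share their end at 194961279, so counts taken from the 3′ end cannot separate the long and the short isoform. An antisense gene, Gm16897 (194955759 to 194976960, minus strand), overlaps the Cd34 locus and had 0.0797 to 0.555 CPM (UMIs of a gene per 1000000 UMIs of the same barcodes) in fibroblast barcodes, too few to weigh in the Cd34 level.

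Since one of the comparisons is hormonal, the 300 bases around the start of Cd34 are shown (chr1:194938571-194938870, plus strand, RefSeq, GRCm38.p6), with the only match to the estrogen half-site GGTCA, read on the opposite strand, in capitals.
Cd34 promoter: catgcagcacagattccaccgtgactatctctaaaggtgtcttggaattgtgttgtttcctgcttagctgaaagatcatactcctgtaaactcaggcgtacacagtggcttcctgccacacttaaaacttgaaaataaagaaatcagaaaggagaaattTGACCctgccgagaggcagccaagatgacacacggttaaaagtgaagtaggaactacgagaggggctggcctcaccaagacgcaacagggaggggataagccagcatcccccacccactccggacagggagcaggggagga
The half-site match began at base 160 of this Cd34 window, and 40.5% of the 32851 promoter windows in the same table held GGTCA on either strand. The full estrogen response element, the full progesterone response element, its half-site AGAACA and the GLI motif GACCACCCA had 0 matches in the Cd34 window, searched on both strands, against 0.0700%, 0.00913%, 19.0% and 0.253% of all windows. The window had 50% G and C bases and 7 CpG sites, beside medians of 52.7% and 7 over all windows. Letters in this window say nothing of binding.

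The libraries held 56551189 to 112550204 UMIs, and fibroblast barcodes had median depths from 3990 UMIs in pregnancy to 20256 in tumor 2. The 6 fibroblast markers checked (Dcn, Lum, Col1a2, Pdgfra, Col1a1 and Col3a1) were all present in fibroblast barcodes of every library, at 26442 to 64808 CPM summed. Summed endothelial markers reached 4.67 to 48.2 CPM there and epithelial ones 1.78 to 59.8 CPM. Dcn, Lum and Col1a2 had served to choose these barcodes, so their presence was fixed beforehand, as was the absence of Pecam1 and Epcam. Any pair of libraries shared 5 to 51 barcode sequences, 0.0956% to 0.539% of the smaller library. The tumor 2 library stood apart from its replicate in Cd34, as described below, and the main Cd34 comparisons that rest on it are given without it too.

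Because depth differed, detection was measured after every barcode had been thinned at random to 2000 UMIs, which left out 86 to 1310 shallower fibroblast barcodes per library. At that depth Cd34 was found in the majority of wildtype fibroblasts. Its UMIs numbered 11130 to 92860 per library.

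The first question was how Cd34 varies over the developmental cycle of the gland. Cd34 stood at 831 CPM at puberty (95% exact Poisson interval 823 to 839), 885 CPM in adult virgins, 892 CPM during pregnancy, 695 CPM during lactation and 532 CPM on involution. The level was therefore nearly flat from puberty to pregnancy and lower in both later stages. From adult to pregnancy the ratio was 1.01 (0.996 to 1.02), from pregnancy to lactation 0.779 and from lactation to involution 0.766. The highest stage exceeded the lowest 1.68-fold (1.65 to 1.70). With 1 library per stage there is no test, and these intervals cover counting error only. Among 2785 genes of at least 50 CPM, 1443 (51.8%) differed at least 1.5-fold between their highest and lowest stage, the median ratio was 1.51, and 32.8% had a ratio at least as large as that of Cd34, so a range of this size was common.

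The share of fibroblast barcodes with a Cd34 UMI was likewise lowest in lactation and involution. It was 73.5% at puberty, 74.4% in adult virgins, 74.2% during pregnancy, 64.4% during lactation and 53.6% on involution, a gap of 20.8 percentage points (19.5 to 22.1) between adult and involution. The barcodes that did hold Cd34 carried on average 2.27, 2.33, 2.45, 2.24 and 2.05 Cd34 UMIs in the same order. Thus fewer fibroblasts were positive in lactation and involution, and positive ones carried somewhat fewer Cd34 UMIs. Lactation fibroblast barcodes also held milk protein transcripts at 872 CPM.

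**Figure D1:**
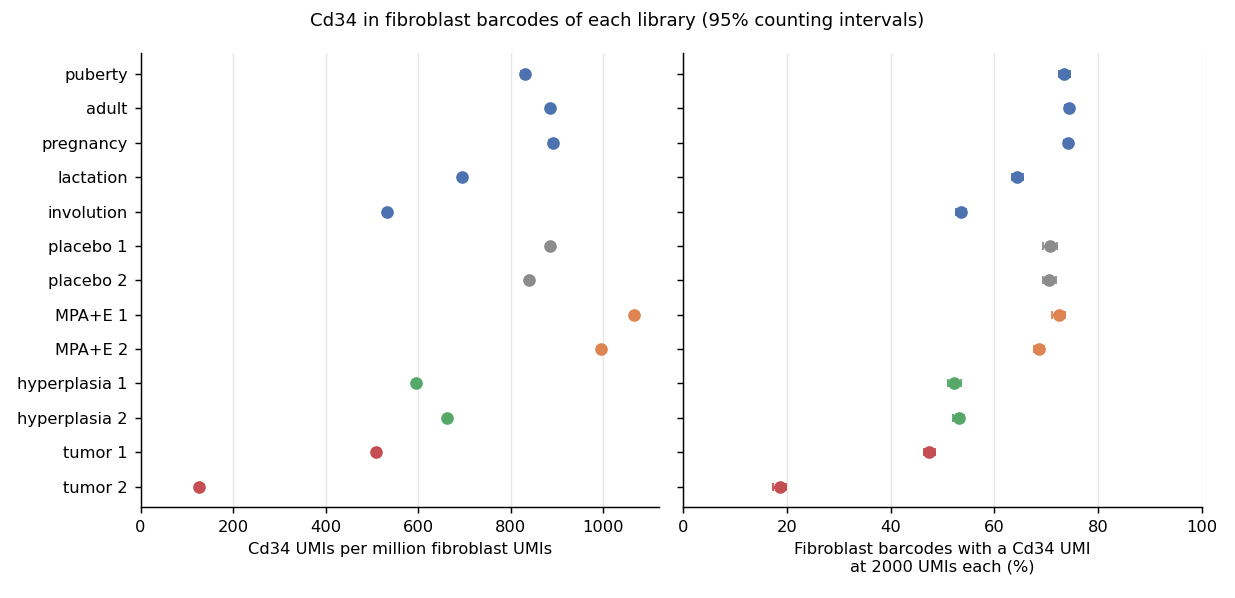
Cd34 in fibroblast barcodes of the 13 libraries, as CPM (left) and as the percentage of barcodes with a Cd34 UMI after thinning to 2000 UMIs (right); points are libraries and bars 95% counting intervals, mostly narrower than the points. Levels run from 1067 CPM in MPA+E 1 to 127 CPM in tumor 2, and only in the tumor pair do replicates lie far apart.

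The second question was whether progestin and estrogen alter Cd34. The placebo libraries had 886 and 839.8 CPM (863 ± 32.4, SD, n = 2) and the MPA+E libraries 1067 and 996 CPM (1032 ± 49.9, SD, n = 2). Both hormone-treated libraries thus lay above both placebo libraries, as was the case for 21.2% of all genes examined. The log2 fold change of Cd34 was 0.27 ± 0.11 (SE), which did not pass edgeR's quasi-likelihood test (adjusted p = 0.296). In that test 678 of 15642 genes (4.33%) were called, a share that fell sharply without either placebo library and rose somewhat without either MPA+E library. The detected share did not separate the groups, since the placebo libraries had 70.8% and 70.6% and the MPA+E libraries lay on either side, at 72.4% and 68.6%. The mean number of Cd34 UMIs in positive thinned barcodes did separate them, with 2.39 and 2.29 after placebo and 2.75 and 2.70 after MPA+E. Median depth did not order the libraries by treatment, at 14158 and 12475 UMIs for placebo and 16827 and 10216 for MPA+E. In barcodes of at most 20000 UMIs, a limit added after the data had been seen, the placebo libraries had 865 and 839.8 CPM and the MPA+E libraries 938 and 996 CPM, and the log2 fold change of Cd34 was 0.18 (edgeR adjusted p = 0.634).

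The third question concerned hyperplasia and cancer. In raGFP-Wnt1 hyperplastic glands Cd34 had 595 and 663 CPM (629 ± 47.9, SD, n = 2), below the normal libraries, puberty and adult, at 831 and 885 CPM. In tumors it had 509 CPM in mouse 1 and 127 CPM in mouse 2 (318 ± 270.3, SD, n = 2), a 4.01-fold gap between replicates. The detected share was 52.3% and 53.1% in hyperplasia and 47.5% and 18.6% in tumors. Within each mouse the tumor was lower than the hyperplastic gland, slightly in mouse 1 and strongly in mouse 2. The groups did not overlap in any of these 3 comparisons. Such a separation downward was found for 33.6% of all genes between hyperplasia and normal, 36.8% between tumor and hyperplasia and 30.5% between tumor and normal, so it was not unusual among genes.

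In the limma-voom fit of these 6 libraries, none of the Cd34 differences passed the threshold. Relative to normal, the log2 fold change was -0.48 ± 0.60 (SE) in hyperplasia (adjusted p = 0.600, with 14% of 16302 genes called) and -1.79 ± 0.60 in tumors (adjusted p = 0.0753, with 22.8% called). Between tumor and hyperplasia it was -1.31 ± 0.60 (adjusted p = 0.136, with 29.3% called). The outcome turned on the 2 tumor libraries. Without tumor 2, limma-voom gave a Cd34 log2 fold change of -0.76 between tumor and normal (adjusted p = 0.0230) and -0.27 between tumor and hyperplasia (adjusted p = 0.304). Without tumor 1 the same differences were -2.82 (adjusted p = 8.4e-05) and -2.33 (adjusted p = 0.000175). Leaving out either tumor also brought hyperplasia against normal past the threshold, at -0.49 each time (limma-voom adjusted p = 0.0410 without tumor 2 and 0.0414 without tumor 1). The number of genes called in that comparison rose with it, from 1255 higher and 1025 lower with all libraries to 2394 and 2416 without tumor 1 and 2389 and 2410 without tumor 2. It fell to between 1 gene and 108 higher with 75 lower when a normal or hyperplastic library was left out. The direction was downward throughout. DESeq2 called the decrease between tumor and normal (-1.44, adjusted p = 0.0272) and edgeR's quasi-likelihood test did not (-1.45, adjusted p = 0.124).

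**Figure D2:**
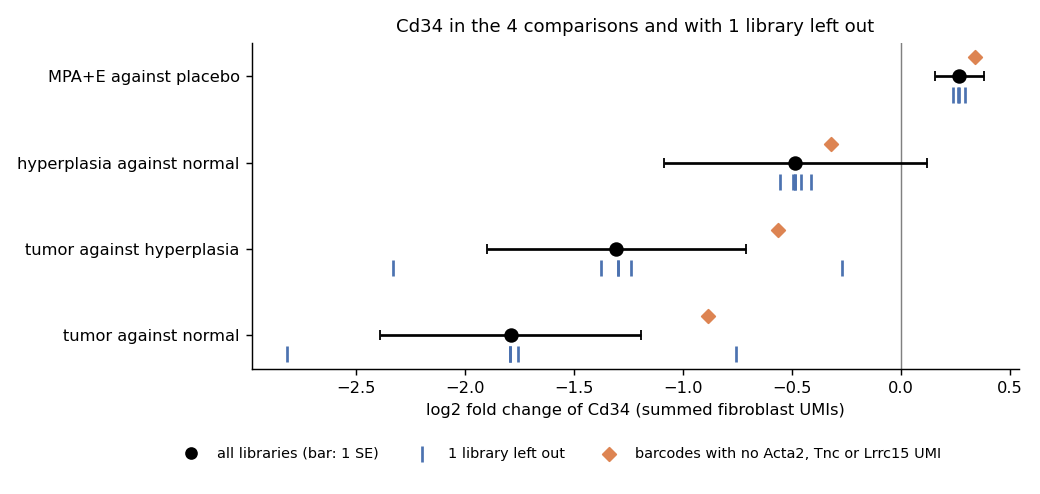
Log2 fold change of Cd34 summed over fibroblast barcodes in the 4 comparisons; black points use all libraries (bar, 1 SE), blue ticks leave out 1 library each, and orange diamonds use only barcodes without a UMI of Acta2, Tnc or Lrrc15. For tumor against normal the ticks run from -2.82 to -0.76, whereas for MPA+E against placebo they stay between 0.24 and 0.29.

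Cd34 was unevenly spread over the fibroblasts of every library. In the adult 25.6% of thinned barcodes had no Cd34 UMI, where a Poisson law with the same mean gives 17.6%, and 46.9% had 2 or more UMIs. Tumor 1 combined 52.6% of barcodes without Cd34, against 32.5% under the Poisson law, with 28.2% that had 2 or more. In tumor 2 only 5.11% had 2 or more.

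To see where Cd34 sat, thinned fibroblast barcodes were divided by a UMI of the progenitor markers Pi16 (a secreted peptidase inhibitor) or Dpp4 (dipeptidyl peptidase) and by a UMI of the myofibroblastic genes Acta2 (smooth muscle actin), Tnc (tenascin C) or Lrrc15. In wildtype libraries Cd34 was detected in 67.8% to 87.6% (median 84.8%) of barcodes with a progenitor UMI only. Where only a myofibroblastic UMI was present, it was detected in 24.0% to 55.2% (median 44.6%). With neither, the range was 40.4% to 62.4%. In each wildtype library the progenitor-only share was thus above the myofibroblastic-only share, and these ranges did not overlap.

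Hyperplastic glands kept a high Cd34 share among progenitor-only barcodes, 79.1% and 83.9%, whereas 31.4% and 26.4% of their myofibroblastic-only barcodes had Cd34. In the tumors the myofibroblastic-only barcodes had similarly low Cd34 shares in both mice, 15.8% and 14.6%, below every wildtype and hyperplastic library. The progenitor-only barcodes differed between the mice: Cd34 was present in 75.2% in tumor 1, within the wildtype range, and in 36.2% in tumor 2. The make-up of the libraries also differed. A single UMI was enough for either class, so the class names stand for these genes and not for a cell type. The paper observed fibroblasts positive for smooth muscle actin only in tumors. Myofibroblastic-only barcodes were 1.76% to 8.41% of wildtype fibroblasts, 15.8% and 11.6% in hyperplasia, 23.9% in tumor 1 and 58.2% in tumor 2, while progenitor-only barcodes were 42.6% to 62.6%, 32.5% and 36.2%, 41.4% and 9.55%. The class name does not hold for all its genes in hyperplasia: Tnc had 149.8 and 85.5 CPM in fibroblast barcodes against 11 and 8.17 in puberty and adult (limma-voom adjusted p = 0.052, not passing), whereas Acta2 was lower there, at 0.761 and 2.07 CPM against 45.7 and 17.8 (log2 fold change -4.46, limma-voom adjusted p = 0.036).

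**Figure D3:**
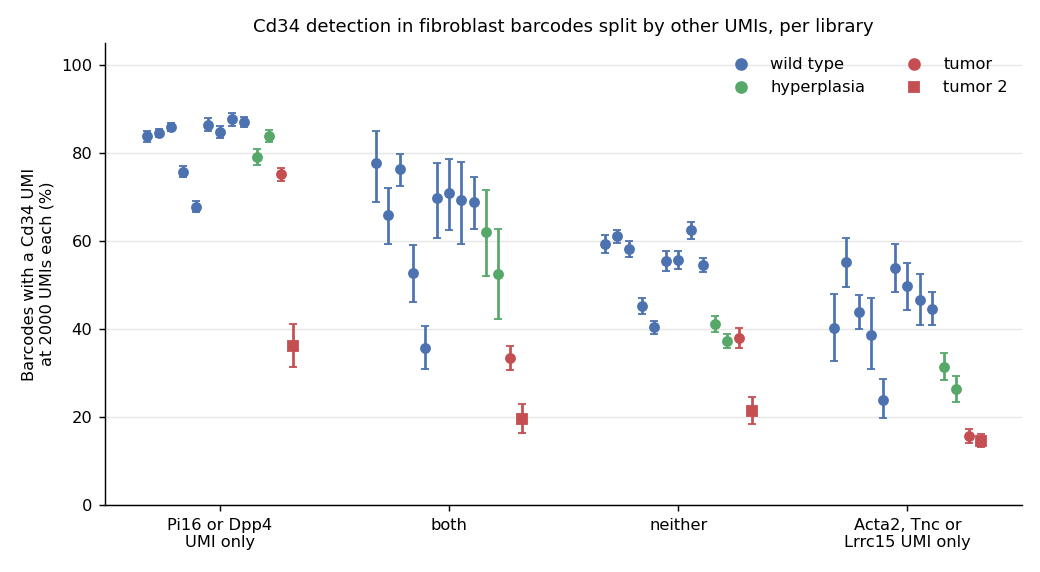
Percentage of fibroblast barcodes with a Cd34 UMI, thinned to 2000 UMIs, by the presence of Pi16 or Dpp4 and of Acta2, Tnc or Lrrc15 UMIs; each point is a library and bars are 95% exact binomial intervals. Wildtype progenitor-only points lie at 67.8% to 87.6% and the tumor points of the myofibroblastic-only class at 15.8% and 14.6%, with tumor 2 (squares) low in all 4 classes.

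When barcodes with any UMI of Acta2, Tnc or Lrrc15 were removed, a filter on unthinned counts added after the data had been seen, Cd34 stood at 949.6 CPM in tumor 1 and 282 in tumor 2. The filter kept 3705 of 8917 barcodes in tumor 1 but 325 of 4236 in the deeper tumor 2, with 990 Cd34 UMIs, and 10725 of 11951 in the adult, and, being set on unthinned counts, it depends on depth. The normal libraries had 862 and 909.8 CPM under this filter and the hyperplastic ones 691 and 753. Tumor 1 was then above every normal and hyperplastic library and tumor 2 below all of them. The limma-voom log2 fold change of Cd34 between tumor and normal became -0.89 (adjusted p = 0.300). The difference was smaller without the myofibroblastic barcodes, and their part in it was not tested further.

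Endothelial cells are the textbook source of Cd34, and the sort was directed against CD31, an endothelial surface protein. Libraries with at least 20 endothelial barcodes numbered 8, all wildtype. Their endothelial Cd34 levels ran from 224 CPM in placebo 1, with 33 endothelial barcodes, to 559 CPM on involution, with 226, and the others lay at 230 CPM (lactation), 314 (adult), 367 (MPA+E 2), 437 (MPA+E 1), 449 (puberty) and 506 (pregnancy). In 7 of these 8 libraries the endothelial level was below the fibroblast level of the same library, with involution (559 against 532 CPM) as the exception. The mean log2 ratio of endothelial to fibroblast CPM was -1.18 (SD 0.63, n = 8), and an exact two-sided sign-flip permutation test gave p = 0.0156, where the smallest possible p is 0.00781. With all 3 endothelial genes required, 6 libraries were left and the ratio was -0.95 (exact permutation p = 0.0625). The endothelial barcodes were few and shallow, with medians of 1239 to 4026 UMIs, after a sort against CD31. Endothelial markers in them summed to 5319 to 9679 CPM and fibroblast markers to 268 to 1815 CPM, and both sums include genes that had served to choose these barcodes.

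Epithelial, Schwann and pericyte barcodes gave the background; muscle barcodes are shown beside them, although muscle stem cells are known to carry CD34. At 2000 UMIs, pooled over wildtype libraries, Cd34 was found in 68.8% of fibroblast, 50.3% of endothelial, 18.9% of muscle, 4.51% of epithelial, 3.67% of Schwann and 2.80% of pericyte barcodes. The corresponding numbers of barcodes were 69845, 318, 482, 842, 109 and 1037. Libraries contributed unequally: 258 of the muscle barcodes came from puberty, where 11.6% had Cd34 against 33.8% in the adult, and 525 of the epithelial ones from pregnancy (5.90%). On involution the endothelial share, 61.5% of 78 barcodes, was above the fibroblast share of 53.6%. The endothelial share was thus far above the low shares of epithelial, Schwann and pericyte barcodes. The muscle class, chosen by at least 2 of Myf5, Pax7, Des and Myog, had an intermediate share with 113 CPM of Cd34. The fibroblast share in tumor 2, 18.6%, remained above the 1.30% of 230 epithelial barcodes in the same library.

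**Figure D4:**
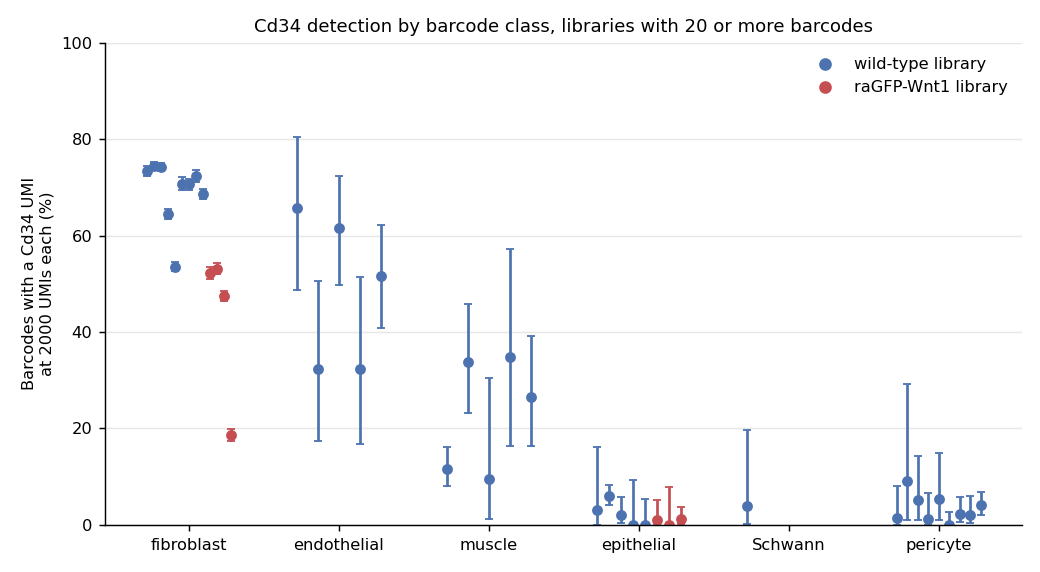
Percentage of barcodes with a Cd34 UMI after thinning to 2000 UMIs, by barcode class; each point is a library with at least 20 thinned barcodes of that class and bars are 95% exact binomial intervals. Fibroblasts and endothelial barcodes stand above epithelial and pericyte ones, with tumor 2 at 18.6% as the lowest fibroblast point.

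Next, the genes that accompany Cd34 in the same fibroblast were sought. Within each library the thinned counts were summed over barcodes with and without a Cd34 UMI, and the 26 sums were compared by edgeR with library as a block (log2 fold changes are of levels with against without Cd34). A barcode without a Cd34 UMI at 2000 UMIs can still express the gene. In wildtype fibroblasts 2374 genes were called higher and 2404 lower with Cd34, 35.8% of 13337 genes tested. Counted over all genes tested, called or not, 1546 were higher and 1010 lower in each of the 9 libraries. The called higher genes were 17.8% and the called lower ones 18% of those tested. Many genes thus differed, and the sizes of the differences are given next.

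The genes described next had a mean of at least 20 CPM over all 26 sums, hyperplasia and tumor included. Over the wildtype sums alone, 3 of these 20 genes were under that limit: Krtdap (15.8 CPM), Fmod (9.13 CPM) and Ccn4 (16.3 CPM). Krtdap had a log2 fold change with Cd34 of 2.27 ± 0.15 (SE, edgeR adjusted p = 1.5e-09). It had 19.0 to 33.8 CPM (median 28.4) in barcodes with Cd34 and 1.7 to 8.3 CPM (median 6.6) without, so the ranges did not overlap. Krtdap, Dmkn (2.23) and Sbsn (2.01) encode small secreted proteins best known from the epidermis. The paper used Krtdap, with Krt10, as a keratinocyte marker when it set contaminating cells aside. The fibroblast limits used here excluded neither gene, and Krt10 was not among the markers checked. Whether keratinocytes contributed to the Krtdap counts was not tested. Of the 4 epithelial markers tested 1 was higher and 0 were lower with Cd34 (median -0.36). The other leading genes were Limch1 (2.21, an actomyosin regulator), Aldh1a3 (2.05, an enzyme that makes retinoic acid), Akr1c18 (2.01, which inactivates progesterone), Sema3c (1.95, a secreted semaphorin), Efhd1 (1.91, a mitochondrial calcium-binding protein), Aif1l (1.86, an actin-binding protein) and Lurap1l (1.85). Akr1c18 belongs to a family of close copies, so its own level is uncertain.

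Lower with Cd34 was Fmod (fibromodulin, a collagen-binding proteoglycan), which met the limit through its tumor levels and whose log2 fold change was -2.37 ± 0.23 (SE, edgeR adjusted p = 1.6e-07). Fmod had 0.2 to 7.0 CPM (median 2.9) with Cd34 and 5.2 to 34.1 CPM (median 12.8) without. Igfbp2, which binds insulin-like growth factors, stood at -2.12, Crabp1, which binds retinoic acid, at -1.98, and Serpina3g, a member of a protease inhibitor family with close copies, at -1.97. Also lower were F2r (-1.94, a thrombin receptor), Col13a1 (-1.91, a transmembrane collagen), Pla2g7 (-1.90, which degrades platelet-activating factor), Lamc3 (-1.79, a laminin chain), Map2 (-1.74) and Ccn4 (-1.74).

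The progenitor markers accompanied Cd34 without exception: 11 of 11 were higher in wildtype fibroblasts, with a median log2 fold change of 1.70 beside -0.00 over all genes. Dpp4 had 215 to 406 CPM (median 262) in barcodes with Cd34 and 41.9 to 130.1 CPM (median 95.2) without (1.68 ± 0.08). Conversely, Cd34 was detected in 77.0% to 91.2% of barcodes with a Dpp4 UMI and in 45.1% to 69.3% of those without. For Pi16 (1.75) the Cd34 shares were 66.7% to 87.4% and 41.2% to 62.7%. Ly6a, which encodes Sca-1 and has near-identical relatives, differed least among the 11, at 0.89. Cd55, a complement regulator, stood at 1.70, Igfbp5 at 1.74, Anxa3 at 1.64 and Tek, the angiopoietin receptor, at 1.42. The list was drawn up with results of these data known, so its direction is no independent evidence.

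The other lists are read against the 18% of all genes that were lower with Cd34. They too were drawn up with results of these data known, so their directions are no independent evidence. All 4 basement membrane collagens were lower, Col18a1 by a log2 fold change of -1.10, Col15a1 of -0.99, Col4a2 of -0.83 and Col4a1 of -0.70. Cd34 was found in 40.3% to 62.9% of wildtype barcodes with a Col15a1 UMI and in 63.4% to 83.4% of those without. The 4 preadipocyte genes were lower as well, led by the fatty acid carrier Fabp4 (-1.32) and with lipoprotein lipase, Lpl, at -0.86. The same held for 5 of 5 genes of a matrix remodeling list, with Mgp (-1.59), the protease gene Mmp3 (-0.83), the collagen cross-linking enzyme gene Lox (-0.62) and, from the genes above, Crabp1 and Pla2g7, which are not matrix genes, and for 3 of 4 adipogenesis-regulatory genes, including Fmo2 (-1.03) and F3 (-0.81), while Gdf10 did not pass (-0.29). Of 6 lobular genes Fndc1 was higher (1.29) while Thbs4 (-0.76), Cilp (-0.58) and Tgfbi (-0.36) were lower, and Bmp5 (-0.05) and Eng (0.01) did not pass.

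The Hedgehog transducer Gli2 was lower with Cd34 (-0.83 ± 0.09), as were the target genes Hhip (-0.82), Gli1 (-0.52) and Ptch1 (-0.40). The 4 genes were thin, with Gli1 at a mean of 3.48 CPM, and Cd34 shares in barcodes with a Gli1 UMI overlapped those without. None of the 4 cycling genes passed the test in wildtype fibroblasts, although Top2a stood at 0.59 (edgeR adjusted p = 0.0635).

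Of 18 genes of relatives and partners of CD34, 12 had enough counts to be tested for co-detection in wildtype, of which 2 were higher and 4 lower, beside 17.8% and 18% of all genes. Cd164, another sialomucin, was higher with Cd34 (0.74 ± 0.07), and so was the scaffold gene Slc9a3r1 (0.73 ± 0.14). The related scaffold gene Slc9a3r2 was lower (-1.19 ± 0.10), as were ezrin, Ezr (-0.99), the sulfotransferase gene Chst2 (-1.08) and the fucosyltransferase gene Fut4 (-0.74, edgeR adjusted p = 0.0497). Podxl2 (-0.09), moesin, Msn (0.09), and Crkl (0.09) did not pass the test. Of the direct relatives, Podxl2 had 10.1 to 35.7 CPM over the 13 libraries and Podxl 0.02 to 0.29 CPM. The selectin genes Selp and Sele lay at or below 1.81 CPM in fibroblast barcodes of each library, and Chst4 had 0 UMIs throughout.

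The same family list in the group comparisons showed that Cd164 had a log2 fold change of 1.00 under MPA+E (edgeR adjusted p = 0.042) and Podxl2 of -0.92 (adjusted p = 0.012), while Cd34 itself did not pass. Of all genes, 2.69% were called higher and 1.64% lower. List genes were read only from the fits with all libraries, and calls under MPA+E fell sharply without either placebo library. In tumors against normal Cd164 was lower (-1.22, limma-voom adjusted p = 0.010), as Cd34 was in value, and Fut4 (2.50), Chst2 (1.94) and Ezr (1.63) were higher. Of 11 progenitor markers 6 fell under MPA+E, with Igfbp5 at -2.37, Aldh1a3 at -1.82 and Sema3c at -1.62, and Ly6a rose (0.88), whereas Cd34 had a positive value of 0.27. In tumors against normal 2 of 11 fell, Ly6a (-2.31) and Anxa3 (-2.01), beside 10.1% of all genes called lower, and all 11 values were below 0, as was that of Cd34. The medians of the 11 were -0.76 under MPA+E and -1.97 in tumors against normal, beside 0.01 and -0.01 over all genes.

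In hyperplasia 1229 genes were higher and 1361 lower with Cd34 (19.4% called by edgeR), and in tumors 822 and 967 (13.4%). Genes called in both wildtype and tumors in the same direction numbered 612 higher (25.8% of the wildtype and 74.5% of the tumor genes) and 569 lower (23.7% and 58.8%). Another 45 genes were higher in wildtype and lower in tumors, and 27 the reverse. Of all genes tested, 17.8% were called higher and 18% lower in wildtype, and 6.16% and 7.25% in tumors. The progenitor markers were again 11 of 11 higher in both states, with medians of 2.56 in hyperplasia (9.21% of all genes higher) and 1.88 in tumors (6.16% higher). In each tumor alone all 11 were above 0, with medians of 2.30 in tumor 1 and 1.42 in tumor 2. By the same limit of 20 CPM over all sums, the genes named in tumors were Limch1, with a log2 fold change of 3.53, Efhd1 (3.34), Krtdap (3.25), Car8 (3.14), which encodes a carbonic anhydrase-related protein, and Smpd3 (3.10), a sphingomyelinase gene. Limch1, Krtdap and Car8 averaged 12.8, 9.74 and 19.6 CPM in the tumor sums and met the limit through other states. In hyperplasia Limch1 (3.17), Efhd1 (2.92), Krtdap (3.05), Car8 (2.93) and Smpd3 (2.67) were higher with Cd34 as well. Lower were Fmod (-2.91), Igfbp2 (-2.85), Ltbp2 (-2.44), which encodes a matrix protein, and Igfbp3 (-2.31). Without tumor 1 the values were -1.85 for Fmod, -2.28 for Igfbp2, -1.31 for Ltbp2 and -1.61 for Igfbp3, and without tumor 2 they were -3.32, -3.36, -3.11 and -2.93. For the higher genes, leaving out either tumor gave 3.46 to 4.75 for Limch1, 3.30 to 3.34 for Efhd1 and 3.13 to 3.34 for Car8. Krtdap then had 2.61 to 3.27 and Smpd3 2.47 to 3.12. Without tumor 1 the calls of Limch1, Efhd1, Krtdap, Car8, Smpd3, Fmod and Igfbp3 were lost (edgeR adjusted p = 0.0679 to 0.813), whereas without tumor 2 all of these genes passed. Igfbp2 stood at 255 CPM with Cd34 and 2626 without in tumor 1, and at 210.2 and 1071 CPM in tumor 2.

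Genes of the myofibroblastic and senescence list were lower with Cd34 in tumors for 8 of 9 members, with a median of -1.61 beside -0.02 over all genes, of which 7.25% were lower, and medians of -2.15 in tumor 1 and -1.07 in tumor 2. In wildtype 7 of the 9 were lower with Cd34 as well and 1, Cdkn1a, was higher (median -0.88). In hyperplasia 3 of the 9 were lower and 0 higher (median -0.89), beside 1361 of 13337 genes lower. Lrrc15 (0.22), Tagln (0.08) and Wnt9a (0.04) had values above 0 there and did not pass. This list was also drawn up with results of these data known, so its direction is no independent evidence. Cdkn2a, which encodes the cell cycle inhibitor p16 and is a marker of senescence, had 17.5 CPM with Cd34 and 194 without in tumor 1, and 33.2 and 143 CPM in tumor 2 (-2.95, edgeR adjusted p = 4.4e-07). In the wildtype libraries it lay at or below 5.04 CPM in both kinds of barcodes. Tagln (-2.17), Acta2 (-2.04), Cxcl14 (-1.81), Lrrc15 (-1.61), Cdkn1a (-1.34), Wnt9a (-1.05) and Tnc (-0.80) were lower too, while Postn, at -0.67, did not pass. Cd34 was detected in 9.7% of the 1102 barcodes of tumor 1 with a Cdkn2a UMI and 52.9% of those without, and in 7.3% and 20.6% in tumor 2.

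For 464 genes (3.48%) the difference with Cd34 was itself different between tumor and wildtype, 210 with a higher and 254 with a lower value in tumors. Cdkn1a, which encodes the inhibitor p21, was slightly higher with Cd34 in wildtype (0.33, 248 to 828 CPM with and 143 to 730.2 without) and lower with it in tumors (293 against 856 CPM in tumor 1 and 217 against 494 in tumor 2), a difference of -1.67 (edgeR adjusted p = 1.5e-05). Igfbp3 did not pass in wildtype (-0.27) and was lower with Cd34 in tumors, a difference of -2.04. Acta2 (-1.35) and Tagln (-1.23) were lower with Cd34 in both, by more in tumors. Col18a1 and Lpl were lower with Cd34 in wildtype and had values of -0.03 and 0.16 in tumors, differences of 1.06 and 1.02. In hyperplasia Cdkn1a (-0.29), Igfbp3 (-0.57), Acta2 (-2.12) and Tagln (0.08) did not pass, whereas Col18a1 (-0.98) and Lpl (-0.59) were lower with Cd34.

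The calls in tumors rested mostly on tumor 1, which had 4121 barcodes with and 4564 without Cd34, where tumor 2 had 757 and 3315. Without tumor 1 edgeR called 46 genes in tumors and 62 for the difference from wildtype, and without tumor 2 it called 1802 and 481. Among barcodes without a UMI of Acta2, Tnc or Lrrc15 the difference from wildtype was called for 0 genes by edgeR (811 at an unadjusted p under 0.05, with no other tool run on these barcodes). Cdkn1a had a value of -0.72 there (edgeR adjusted p = 0.135). That filter left tumor 2 with 91 barcodes with and 172 without Cd34, and tumor 1 with 2545 and 1002. The lack of calls therefore cannot be told apart from the loss of barcodes.

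**Figure D5:**
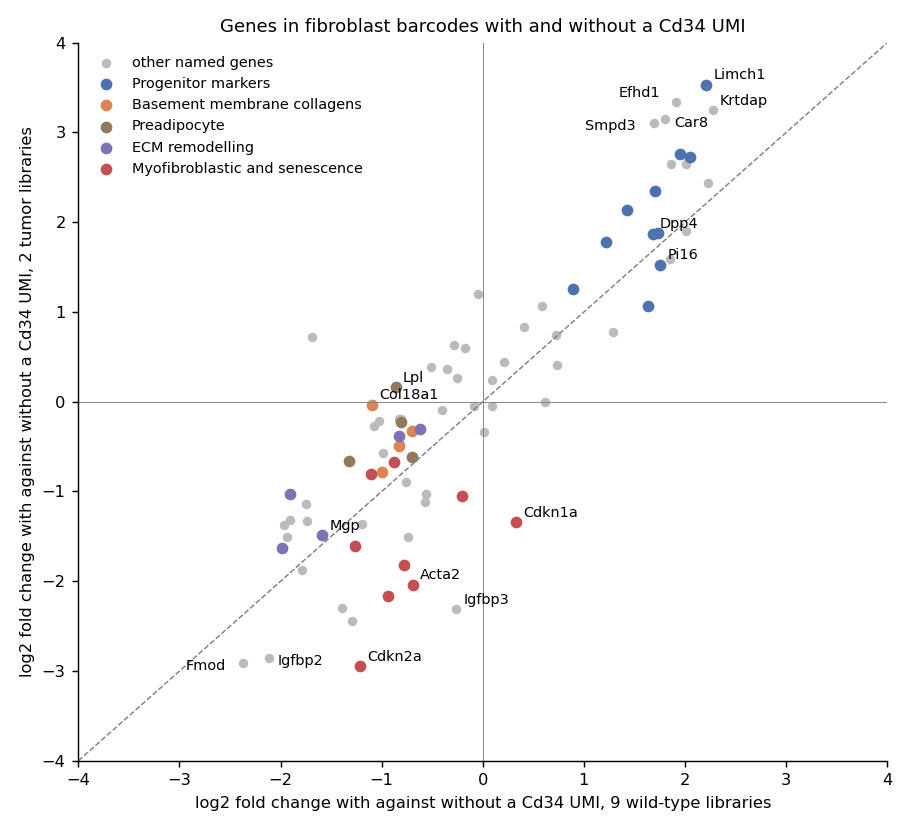
Log2 fold change of the named genes between fibroblast barcodes with and without a Cd34 UMI, in 9 wildtype libraries (horizontal) and 2 tumor libraries (vertical); each point is a gene, colored by list, and the dashed line marks equal values. Progenitor markers lie between 0.89 and 2.21 in wildtype and all above 0 in tumors, while Cdkn1a changes sign, from 0.33 to -1.34.

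Over the 13 libraries, the genes whose log2 level in fibroblasts followed Cd34 most closely, out of 2798 genes of at least 50 CPM, were Npr1 (Pearson r = 0.960), Osr2 (0.943), Plce1 (0.935), Ly6c1 (0.935) and Ogn (0.931). Over the 9 wildtype libraries alone the values were 0.659, 0.632, 0.583, 0.747 and -0.01. Over the 12 libraries without tumor 2, a set chosen after seeing the data, they were 0.781, 0.774, 0.760, 0.810 and 0.547, so all 5 were lower without that library. The points share replicates, depth and cell composition, so these values are descriptions, and Ly6c1 has near-identical relatives.

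Ordered by group mean, Cd34 was highest under MPA+E, followed by pregnancy, adult, placebo, puberty, lactation, hyperplasia, involution and tumor. Neighbors from pregnancy to puberty differed by log2 gaps of 0.0121 to 0.0541, and lactation and hyperplasia by 0.143, all within the largest gap between replicates outside the tumors, 0.155. The steps from MPA+E to pregnancy (0.21), from puberty to lactation (0.26), from hyperplasia to involution (0.24) and from involution to tumor (0.74) were beyond that gap, although the tumor replicates themselves lay 2.01 apart. The last step rests on tumor 2, at 127 CPM, since tumor 1 had 509 CPM beside 532 on involution. The order of the groups crosses libraries of different genotype and sort.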

How the data were processed

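The deposited files were UMI count matrices in 10x format that the authors made with Cell Ranger 6.1.2 (filtered output, mm10, per the submitters' processing notes), as raw counts without normalization; the annotation release is not given in the sources used here. Fibroblast barcodes were chosen by the gene limits stated in the report, not by the study's own annotation, and doublets were left in except in an alternative, where a nearest-neighbor score after the Scrublet method marked 0.8% per 1000 barcodes. Counts were summed per library, since cells are not replicates. MPA+E was compared with placebo with the quasi-likelihood test of edgeR 4.0.16, after filterByExpr and TMM scaling, and normal, hyperplasia and tumor by limma-voom (limma 3.58.1); the study's methods state limma-voom for the latter comparison and, for MPA+E against placebo, no tool. Adjusted p-values follow Benjamini and Hochberg over all genes tested, with a threshold of 0.05. CPM is UMIs of a gene per 1000000 fibroblast UMIs. Detection and co-detection used 1 seeded draw of 2000 UMIs per barcode (numpy 2.4.6, Python 3.11.15, R 4.3.3); co-detection counts were fitted by edgeR with library as block. Intervals are exact Poisson or exact binomial and cover counting error only. The tests were checked on simulated counts whose spread was set in advance and not taken from the tumor libraries. Thinned shares were set beside those expected over draws.

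Named genes were the 10 higher and 10 lower with the largest co-detection change in wildtype (adjusted p under 0.05, same sign in all 9 libraries, at least 20 CPM), 5 each in tumors by the same rule, the 5 genes most like Cd34 over libraries (log2 of CPM + 1, at least 50 CPM), and fixed lists. A few genes under these rules are not reported here. The members and lists were chosen with earlier results of these data known. Promoter motifs were searched in RefSeq windows. The paper states that tumors and hyperplastic glands were paired within a mouse, and pairs were matched here by the replicate number and age in the labels. The deviations of these pairs from group means correlated at 0.265 over 8311 genes. P-values reflect the spread between these libraries, most of which hold pooled females. For the normal group this spread is between puberty and adult, and for wildtype co-detection it is between unlike stages and treatments. Alternatives covered tools, scaling, filters, gates, depth and left-out libraries (DESeq2 1.42.0 among them); those on barcodes without myofibroblastic UMIs, on barcodes of at most 20000 UMIs, and most of those on the difference between tumor and wildtype co-detection were chosen after seeing the data.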

Additional observations from a re-analysis of the deposited data

Results flagged for a closer look

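A difference between tumor and wildtype in how genes go with Cd34 was found, by a test of the difference itself (edgeR, adjusted p under 0.05), for 464 of 13337 genes; among the named genes it was found for the 11 below, each given as the log2 fold change with Cd34 in tumors minus that in wildtype. Genes higher with Cd34 in both states, and by more in tumors, were Limch1 (1.32), Efhd1 (1.43), Aif1l (0.79), Car8 (1.34) and Smpd3 (1.41). In hyperplasia the log2 fold changes of these genes with Cd34 were 3.17, 2.92, 2.74, 2.93 and 2.67 in that order. In tumors they were 3.53, 3.34, 2.65, 3.14 and 3.10. The high values were thus shared by hyperplasia and tumors, and the difference between these states was not tested. Col18a1 (1.06) and Lpl (1.02) were lower with Cd34 in wildtype fibroblasts and did not pass in tumors. Acta2 (-1.35) and Tagln (-1.23) were lower with Cd34 in both states and by more in tumors. Igfbp3 (-2.04) was lower with Cd34 in tumors and did not pass in wildtype, and Cdkn1a (-1.67) was higher with Cd34 in wildtype and lower with it in tumors. The tumor side of each value comes from 2 libraries, and without tumor 1 the differences of Limch1, Efhd1, Aif1l, Car8, Smpd3, Igfbp3, Acta2 and Tagln no longer passed. Of these, Limch1 (2.54), Efhd1 (1.39) and Car8 (1.54) had values at least about as large without it, Smpd3 (0.77) and Igfbp3 (-1.34) smaller ones, and Aif1l (0.22), Acta2 (-0.46) and Tagln (-0.46) much smaller ones. Without tumor 2 that of Col18a1 no longer passed (0.86, adjusted p = 0.0734).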

How the results depend on the processing

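No Cd34 comparison, and none of the leading co-detected genes in wildtype and tumors or of the 11 differences, reversed its direction under the alternatives run on them; genes named only from the fixed lists were not rerun. The ratio of the highest to the lowest stage was 1.58 in barcodes without a UMI of Acta2, Tnc or Lrrc15. The gap in detected share between stages was 18.3 points at 1000 UMIs, 12.1 without thinning and 18.5 without those barcodes. Involution was lowest each time, whereas the highest share was in adult or in pregnancy depending on the setting. MPA+E against placebo did not pass under any alternative, and leaving out 1 library gave 0.24 to 0.29. Replicate numbers of placebo and MPA+E mark no shared animal; their deviations correlated at 0.650, and with a replicate block the value for Cd34 MPA+E against placebo was 0.27 (adjusted p = 0.130), with 2451 genes called, against 678 without it. The replicate block on mouse gave -1.35 for tumor against hyperplasia (adjusted p = 0.124) and changed no call. Leaving out 1 library, where the lone sample of a group is assumed to vary like the others, gave -0.56 to -0.41 for hyperplasia against normal, -2.33 to -0.27 for tumor against hyperplasia and -2.82 to -0.76 for tumor against normal, which DESeq2 put at -1.44. The endothelial ratio was -0.71 (exact permutation p = 0.0156) without the limit on fibroblast genes, -0.95 with all 3 genes required and -1.36 to -1.06 with 1 library left out. Genes called for co-detection numbered 4237 to 4608 in wildtype with 1 library left out, 736 to 1433 in hyperplasia, 46 to 1802 in tumors and 62 to 549 for the difference between tumor and wildtype. Fits of only that state called 3891 genes in hyperplasia and 1124 in tumors. Without barcodes holding a UMI of Acta2, Tnc or Lrrc15, 586 were called in tumors and 0 for the difference, which had 934 without a filter on low counts and 257 with the stricter fibroblast limit. The causes of these shifts were not tested. The 20 named wildtype genes kept their call in all 460 alternatives, which their choice by call, size and same sign in all 9 libraries made likely. For those named in tumors 151 alternatives kept the call and 9 lost it, over 8 genes: without tumor 1 in 7 of them, with DESeq2 for Ltbp2, and without myofibroblastic barcodes for Igfbp3 too. Of 263 alternatives for the 11 differences, 40 lost the call. Depth limits what is said of Gli1 and of tumor 2, where barcodes with Cd34 were few.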
